A study of Mus musculus with 20 samples.

Results

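Ribosome footprints of fed mouse embryonic fibroblasts with an induced knockout of Ogt were compared with those of fed control fibroblasts. The comparison was defined by the sample titles and holds 4 libraries, 2 of knockout and 2 of control cells, of the 20 in the series. The other libraries are 8 further Ribo-seq libraries, of starved or Thiamet-G-treated cells, and 8 libraries of footprints from ribosomes associated with the initiation factor eIF3. All 4 libraries came from C57BL/6J fibroblasts kept in DMEM with 10% FBS. Knockout cells received 0.5 µM 4-OHT, the tamoxifen metabolite that activates inducible recombinases, for 24 h and then fresh medium for 24 h. For control cells the labels give neither 4-OHT nor a change of medium, so the loss of Ogt and this treatment cannot be told apart. The labels name no recombinase, no clone and no separate cultures, so p-values here describe spread among the sequenced libraries, and that spread may be technical.

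Ogt encodes O-GlcNAc transferase, the enzyme that adds a single sugar, N-acetylglucosamine, to nuclear and cytoplasmic proteins, among them translation factors and ribosomal proteins. The series title names the subunit eIF3a as a modified protein and the integrated stress response as the setting, so the fed comparison gives the state of translation before stress. In Ribo-seq, RNA that a ribosome covers is protected from nuclease and sequenced. A transcript's share of footprints therefore follows both the amount of its mRNA and how densely ribosomes occupy it. In a bulk lysate these cannot be told apart without matched mRNA libraries, and a change in the make-up of the culture cannot be told apart from a change within each cell.

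Each value was a transcript's RPKM, its reads scaled to coding length and to the library total, so every change below is relative to the rest of the library. Whole reads could be recovered from the steps between RPKM values. Control replicates 1 and 2 held 3350944 and 3030545 reads, and knockout replicates 1 and 2 held 4328260 and 1350105. The replicate 1 files of both groups were listed almost wholly from 5 reads upward, with 0.029% and 0.038% of recovered values under 5 reads, against 11.8% and 15.1% in the replicate 2 files. Knockout and control were for this reason also compared within each replicate number, and these within-pair values are given throughout. Of 13306 transcripts listed in any of the 4 libraries, 9599 were listed in all. The files pair no identifier with a gene name, so the level of Ogt, which would check the labels, the fibroblast markers and all gene groups were not analysed here. Transcripts are described by level and by coding length (median 1443 nt).

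No single transcript passed the test, whereas broad classes of transcripts differed between knockout and control in both pairs. The most heavily read transcripts and those with short coding regions held a smaller share of the footprints in knockout cells. Coding regions over 600 and up to 3000 nt held a larger share. The difference on short coding regions was large in the first pair and small in the second.

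Limma, fitted to log2(RPKM + 1) over all 12 Ribo-seq libraries in 6 groups, called 0 of 10936 transcripts (0%) at an adjusted p under 0.05. The smallest adjusted p was 1. At an unadjusted limma p under 0.05 there were 401 transcripts (3.67%), fewer than the 546.8 expected with no difference. With a block for replicate number in the 8 knockout and control libraries there were 805 of 10811, over the share of 0.05 expected. Of the 401, 165 (1.51%) were higher and 236 (2.16%) lower in knockout cells. This split depended on scaling. Without rescaling between libraries it was 267 higher and 152 lower, under quantile normalization 205 and 153, and under limma-voom on recovered reads 363 and 178. The median log2 fold change of all transcripts was -0.01 with median-ratio rescaling, 0.10 without rescaling and 0.15 under limma-voom. Number and split also depended on single libraries. Without control replicate 2 there were 233 transcripts, 38 higher and 195 lower, and without control replicate 1 there were 249 higher and 164 lower. The libraries of the groups did not overlap for 3663 transcripts (33.5%), with both knockout libraries above both control libraries for 1852 (16.9%) and below them for 1811 (16.6%). With 2 against 2 libraries, shares close to these arise with no difference.

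The precision behind these calls was set by the spread between libraries. The median standard error of a log2 fold change was 0.88, which gives a 95% half-width of 1.92, or 3.78-fold. Between 100 and 1000 RPKM the half-width was 1.29, or 2.44-fold, so smaller differences of single transcripts were mostly not detectable here. These half-widths are not adjusted for the number of transcripts tested. Calls at an adjusted p need larger differences still. Among 7039 transcripts averaging 10 RPKM or more, the median absolute log2 ratio was 0.65 between the control libraries and 0.78 between the knockout libraries. It was 0.73 between knockout and control in replicate 1 and 0.69 in replicate 2. Across replicate numbers it was 0.84 for knockout 1 against control 2 and 0.77 for knockout 2 against control 1. The distance between same-numbered knockout and control libraries thus lay between those of the control and the knockout replicates.

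**Figure D1:**
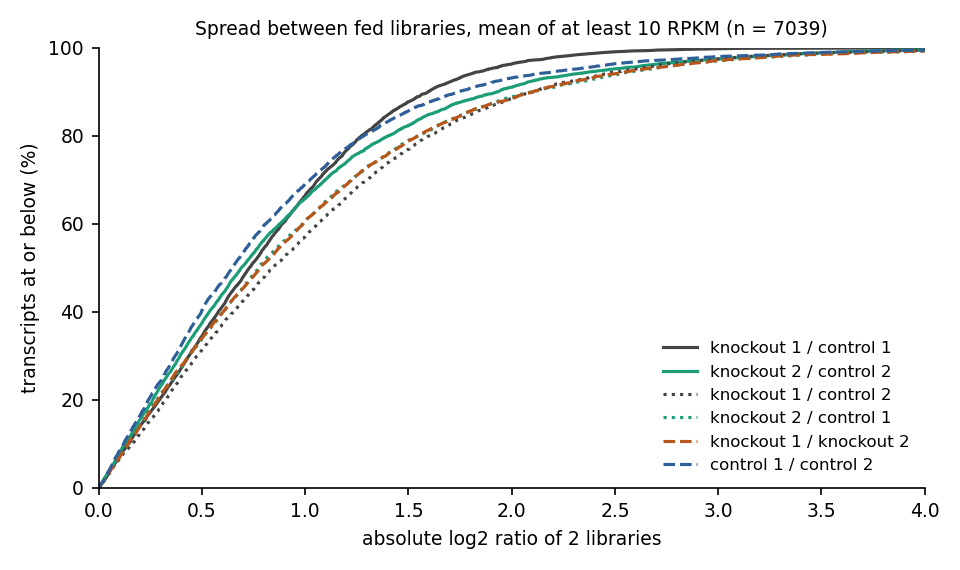
Cumulative share of 7039 transcripts (vertical axis, percent) against the absolute log2 ratio of 2 fed libraries (horizontal axis), for pairs between knockout and control of the same or another replicate number and for replicates of 1 group. The curves lie close together, with medians from 0.65 for the control replicates to 0.84 for knockout 1 against control 2.

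The pairs of libraries were weakly alike on individual transcripts. Over 9545 tested transcripts of known coding length that all 4 libraries listed, the log2 ratios of knockout to control in the pairs correlated at r = 0.15 (Spearman's rho 0.18). This is a description across transcripts, which share libraries and are no independent replicates. A difference of over 2-fold was seen in 29.6% of them in the first pair and in 37.2% in the second. In both pairs 374 (3.92%) were over 2-fold higher and 363 (3.8%) over 2-fold lower, while 375 (3.93%) were over 2-fold changed in opposite directions. The ratios of the pairs had the same sign for 58.0% of the transcripts.

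The correlation between pairs was higher among well-read transcripts, but only for coding regions over 600 nt. Of 2670 transcripts with at least 100 reads in each library, 100 were over 2-fold higher in both pairs, 78 lower and 45 opposed, with r = 0.30 between pairs. With at least 500 reads in each, 408 transcripts were left, with 16 higher, 30 lower and 11 opposed, and r = 0.41. Of these 30 lower transcripts 26 had coding regions of at most 600 nt, and of the 16 higher 0 did. Of all 408, 166 (40.7%) were that short. Within this group the ratios of the pairs correlated at 0.55 among coding regions over 600 nt and at 0.06 among the shorter ones. Without a limit on reads these correlations were 0.16 and 0.004, and that of the shorter ones stayed between -0.01 and 0.06 at each limit. By level, r was 0.25 between 100 and 1000 RPKM and 0.09 over 1000 RPKM.

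**Figure D2:**
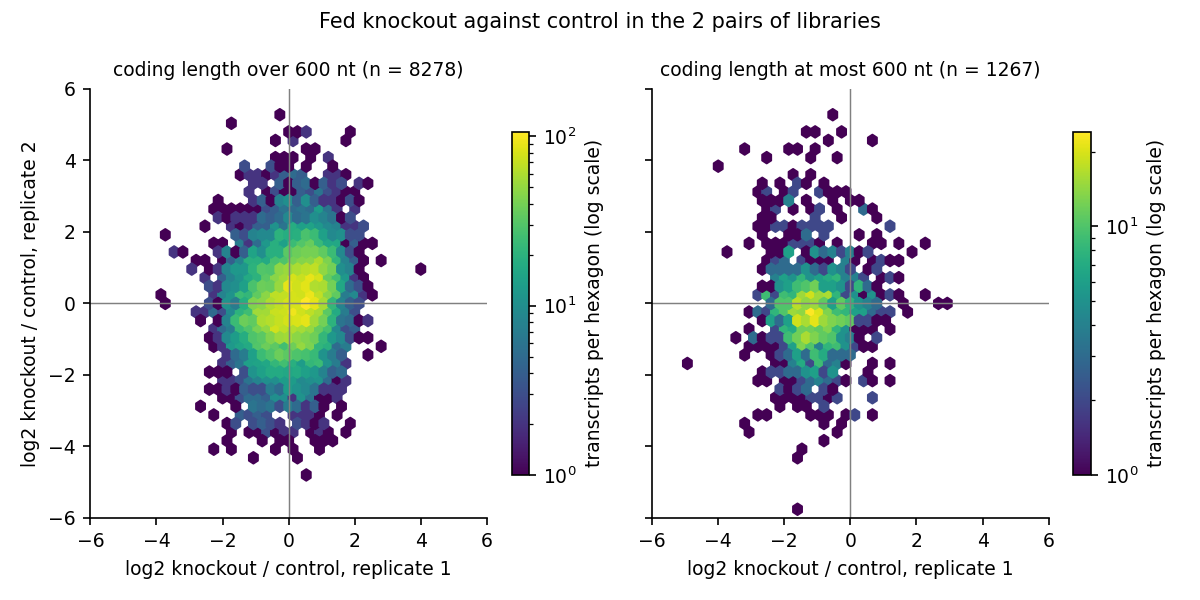
Log2 ratio of knockout to control in replicate 1 (horizontal axis) and replicate 2 (vertical axis) for 8278 transcripts with coding regions over 600 nt (left) and 1267 of at most 600 nt (right), with colour giving transcripts per hexagon on a log scale. The left cloud is centred near 0 on both axes, and the right cloud is displaced to the left by a median of 1.10 and downward by a median of 0.21.

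Ratios depended on how heavily a transcript was read. The 239 transcripts over 1000 RPKM had median log2 ratios of -1.0 in the first pair and -0.39 in the second, and 81.6% and 66.5% of them were below 0. Between 100 and 1000 RPKM, 1815 transcripts had medians of -0.52 and -0.03. Between 1 and 10 RPKM the medians were 0.24 and 0.05 over 2469 transcripts. The decline with level was therefore larger in the first pair and, in the second, was seen mainly above 1000 RPKM.

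Ratios also followed coding length. The 1267 transcripts of at most 600 nt had median log2 ratios of -1.10 and -0.21 in the pairs, and 88.7% and 59.4% of them were below 0. Both ratios were below 0 for 54.4% of them, against 28.3% of all transcripts. The 172 shortest, of at most 300 nt, had medians of -1.35 and -0.35. Above 600 and up to 1500 nt, 3985 transcripts had medians of -0.17 and 0.04. Above 1500 and up to 3000 nt, 2958 transcripts had medians of 0.37 and 0.10. The 1335 transcripts over 3000 nt had medians of 0.42 and -0.01, so a relative gain of the longest coding regions appeared only in the first pair.

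Level and length overlapped without being the same. Among transcripts over 1000 RPKM, 186 of at most 600 nt had medians of -1.16 and -0.41, whereas 52 over 600 and up to 1500 nt had medians of -0.08 and -0.21. Between 10 and 100 RPKM, 349 short coding regions had medians of -0.95 and -0.15, against -0.19 and 0.04 for 2420 coding regions over 600 and up to 1500 nt. In the first pair short coding regions were thus lower at every level shown. In the second pair the gap was smaller from 10 RPKM upward, with -0.20 and 0.04 between 100 and 1000 RPKM. Between 1 and 10 RPKM it was turned, with 0.20 for 41 short coding regions and -0.07 for 530 of the longer class.

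Libraries of the same group also differed by length. For coding regions of at most 600 nt the median log2 ratio of control replicate 1 to control replicate 2 was 0.40, and that of knockout replicate 1 to knockout replicate 2 was -0.44. Control replicate 1 was the library with the highest level of short coding regions and knockout replicate 1 the one with the lowest. In the limma fit the median log2 fold change of the 1439 tested short transcripts was -0.64. It was -0.37 without knockout replicate 1 and -0.87 without knockout replicate 2. For coding regions over 3000 nt the median was 0.17, and it changed sign to -0.03 without knockout replicate 1 and was 0.35 without knockout replicate 2.

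**Figure D3:**
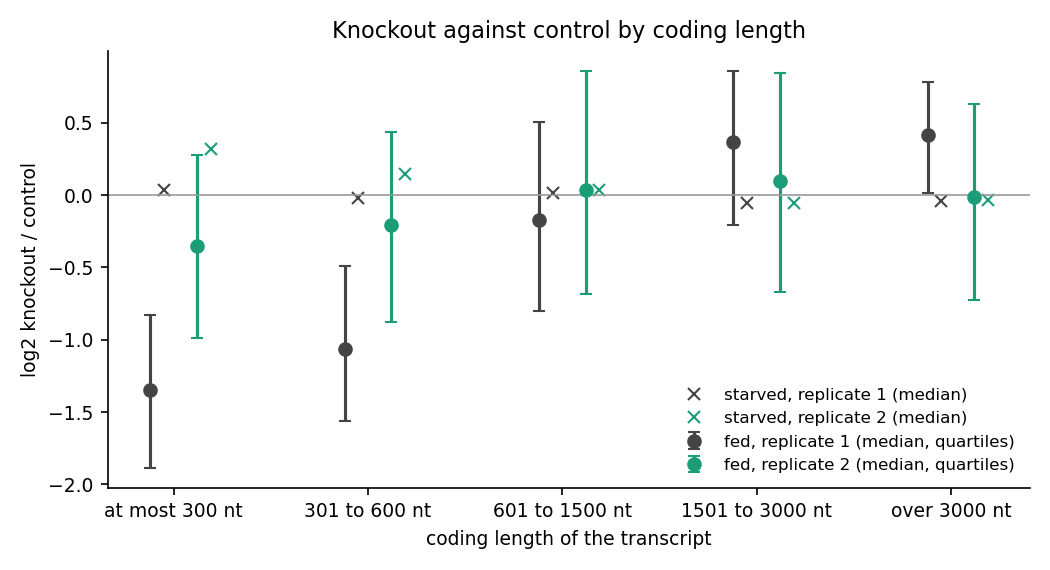
Median log2 ratio of knockout to control (vertical axis) by coding length (horizontal axis) in each replicate pair, with circles and quartile bars for fed cells and crosses for starved cells. The fed replicate 1 medians run from -1.35 at most 300 nt to 0.42 over 3000 nt, the fed replicate 2 medians from -0.35 to -0.01, and the starved medians stay between -0.05 and 0.32.

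The same pattern was counted as shares of reads. Coding regions of at most 600 nt held 43.3% and 34.5% of reads in control replicates 1 and 2, and 25.3% and 28.4% in the knockout replicates. Both knockout libraries lay below both control libraries. The mean was 26.8% ± 2.20 in knockout and 38.9% ± 6.21 in control cells (SD, n = 2 each). Knockout minus control was -12.1 percentage points, with -18.0 in the first pair and -6.13 in the second. A two-sided exact permutation test gave p = 0.33, the smallest that 2 against 2 libraries allow. Without control replicate 1 the difference was -7.69 points. Fed Thiamet-G libraries, which enter neither group, held 40.1% and 33.8%, values close to those of the control libraries with the same replicate number. Starved control libraries held 21.1% and 27.1%.

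Longer coding regions held larger shares in knockout cells in both pairs. Coding regions over 600 and up to 1500 nt held 37.9% and 40.4% of reads in control and 44.2% and 44.4% in knockout libraries, a difference of 5.12 points. Those over 1500 and up to 3000 nt held 13.5% and 18.8% in control and 22.2% and 20.9% in knockout libraries, a difference of 5.37 points. For both classes the groups did not overlap, and the exact permutation p was again 0.33. Coding regions over 3000 nt held 5.31% and 6.19% in control and 8.35% and 6.33% in knockout libraries. That difference of 1.59 points came to 3.04 in the first pair and 0.143 in the second, and to 0.582 without knockout replicate 1 and 2.60 without knockout replicate 2. Averaged over reads, coding length was 1068 and 1208 nt in control and 1408 and 1279 nt in knockout libraries.

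**Figure D4:**
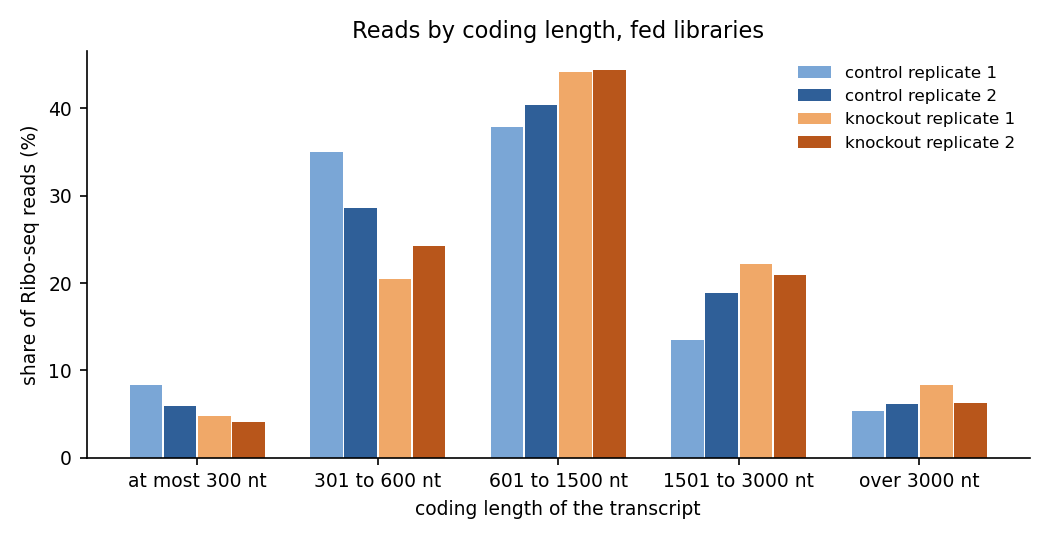
Share of reads (vertical axis, percent) in 5 classes of coding length (horizontal axis), with 1 bar for each of the 4 fed libraries. Both knockout bars are below both control bars up to 600 nt and above them over 600 nt, and over 3000 nt knockout replicate 2 is within 0.143 points of control replicate 2.

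The concentration of reads on the top of the distribution differed more evenly between pairs. The 100 most read transcripts of each library, ranked in that library, held 27.5% and 26.5% of reads in control and 21.0% and 21.2% in knockout libraries. Both knockout libraries were lower, with differences of -6.55 and -5.33 points in the pairs, against an SD between replicates of 0.70 in control and 0.16 in knockout cells (n = 2 each, exact permutation p = 0.33). The 10 most read transcripts held 6.15% and 7.56% in control and 6.12% and 6.75% in knockout libraries. The groups were therefore apart for the top 100 but overlapped within their spread for the top 10.

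A set of 100 transcripts ranked in the fed Thiamet-G libraries followed 1 list through all samples. It held 26.2% and 24.9% of reads in control and 17.5% and 17.0% in knockout replicates. The mean was 25.5% ± 0.93 in control and 17.2% ± 0.37 in knockout cells (SD, n = 2 each), a difference of -8.32 points that was -8.71 and -7.92 in the pairs (exact permutation p = 0.33). The median log2 ratios were -0.97 and -0.74, with 83 and 82 of the 100 below 0 and 70 below 0 in both. Of the 100, 35 were lower at an unadjusted limma p under 0.05, where 2.16% of all transcripts were, and 0 were higher. That base includes many thinly read transcripts. Among all 1439 tested coding regions of at most 600 nt 133 were lower at that level, and among the 69 that short in the list 30 were. The result for the set of 100 depended on where it was ranked. The 100 most read transcripts of starved control cells, 51 of them shared with the first list, held 17.0% and 17.8% in fed control and 17.4% and 19.1% in fed knockout libraries, a difference of 0.85 points in the other direction. The lower share thus belonged to transcripts that rank highest in fed cells without the knockout, and in starved control cells that first list held 11.1% and 17.3%.

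Shares within that list also differed by length. Its 69 members of at most 600 nt held 20.4% and 15.4% in control and 11.2% and 10.1% in knockout libraries, with differences of -9.15 and -5.25 points in the pairs. Its 31 members over 600 nt held 5.84% and 9.51% in control and 6.28% and 6.85% in knockout libraries. Their share thus differed in opposite directions in the pairs, by 0.44 and -2.67 points. By transcript, their median log2 ratios were below 0 in both pairs, at -0.19 and -0.71, with 18 and 26 of the 31 below 0. Those of the 69 short members were -1.16 and -0.96, with 65 and 56 below 0.

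Transcripts at an unadjusted p under 0.05 were examined by length for description only, since they were picked by these same libraries. Of the 236 lower ones 133 (56.4%) had coding regions of at most 600 nt, with a median of 556.5 nt. Of the 165 higher ones 163 had a known length, and 7 of these (4.29%) were that short, with a median of 1221 nt. Among all tested transcripts 13.3% were. Of the 363 transcripts over 2-fold lower in both pairs 151 (41.6%) were short, and of the 374 higher ones 7 (1.87%).

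The transcript with the smallest p of the comparison, chosen after its values were seen, had a coding region of 318 nt. It measured 2798 and 1598 RPKM in control and 507 and 179 RPKM in knockout replicates. Both knockout values were under both control values. Its log2 fold change was -2.80 (SE 0.64), with a limma adjusted p of 1. In fed Thiamet-G cells it measured 1689 and 2279 RPKM. Starved control cells had 175 and 373 RPKM and starved knockout cells 122 and 138 RPKM, so the levels under starvation were in the range of the fed knockout libraries or below. The next lower transcript, of 528 nt, measured 424 and 176 RPKM in control and 62.1 and 43.2 RPKM in knockout replicates. The higher transcript with the smallest p among those of known length, of 1584 nt, measured 12.2 and 9.15 RPKM in control and 45.3 and 72.1 RPKM in knockout replicates, a log2 fold change of 2.33 (SE 0.59, limma adjusted p = 1).

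The largest fold changes belonged to thinly read transcripts. The naming rule ranked transcripts that were listed in all 4 libraries, averaged 10 RPKM or more and did not overlap between groups. For scale, 7039 transcripts of known coding length were listed in all 4 and averaged 10 RPKM or more. The rule was met by 1277 higher and 1455 lower transcripts. With 2 against 2 libraries many transcripts separate with no difference, so these candidates are not calls. The 12 highest candidates had log2 fold changes of 2.51 to 3.37, and 11 of them had a library with under 10 reads. The 12 lowest had log2 fold changes down to -3.73, and 9 of them had such a library. Their coding regions had a median of 358.5 nt, and 9 were at most 600 nt, while the 12 higher ones had a median of 1047 nt with 1 that short. In starved cells 5 of the 12 higher and 6 of the 12 lower transcripts had a fold change of the same sign. All had an adjusted p of 1 in the limma fit, and 2 in each direction are named.

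ENSMUST00000065388, with a coding region of 1239 nt, measured 3.37 and 0.80 RPKM in control replicates (13 and 3 reads) and 14.8 and 52.4 RPKM in knockout replicates (88 and 91 reads). Both knockout libraries were higher, and most of the change came from replicate 2. Counting ratios were taken from reads over library totals, without the rescaling applied to the RPKM values printed here. On that scale the knockout level was 5.24 times the control level in the first pair (95% exact counting interval 2.91 to 10.2). It was 68.1 times the control level in the second pair (22.6 to 336). The log2 fold change was 3.37 (SE 1.13, limma adjusted p = 1), and it was 2.50 to 4.25 when any 1 of the 4 libraries was left out. Starved control cells had 13.9 and 7.17 RPKM and starved knockout cells 13.1 and 7.47 RPKM, so the groups overlapped there.

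ENSMUST00000115110, with a coding region of 945 nt, measured 6.46 and 0.70 RPKM in control replicates (19 and 2 reads) and 25.4 and 37.0 RPKM in knockout replicates (115 and 49 reads). The knockout libraries were both higher. Their counting ratios to control, from reads over library totals without rescaling, were 4.69 (2.87 to 8.07) and 55.0 (14.4 to 467). The log2 fold change was 3.15 (SE 1.18, limma adjusted p = 1). It was 2.08 without control replicate 2 and 4.23 without control replicate 1. Fed Thiamet-G libraries had 8.46 and 35.1 RPKM.

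ENSMUST00000127698, with a coding region of 561 nt, measured 124 and 206 RPKM in control replicates (216 and 351 reads) and 40.6 and 2.54 RPKM in knockout replicates (109 and 2 reads). Both knockout libraries were lower, and they differed from each other by a larger factor than replicate 1 of the groups did. From reads over library totals without rescaling, the control level was 2.56 times the knockout level in the first pair (2.02 to 3.25). It was 78.2 times the knockout level in the second pair (21.5 to 648). The log2 fold change was -3.73 (SE 1.07, limma adjusted p = 1), and it was -1.95 without knockout replicate 2.

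ENSMUST00000086764, with a coding region of 399 nt, rested on 1 library. It measured 16.1 and 383 RPKM in control replicates (20 and 464 reads) and 13.1 and 3.58 RPKM in knockout replicates (25 and 2 reads). Only control replicate 2 was far from the other 3 libraries. The counting interval of the first pair, from reads over library totals without rescaling, included no change (1.03 times, 0.54 to 1.94). The log2 fold change was -3.34 (SE 1.74, limma adjusted p = 1), and it was -1.10 without control replicate 2 and -5.58 without control replicate 1. These counting intervals do not cover the spread between libraries.

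**Figure D5:**
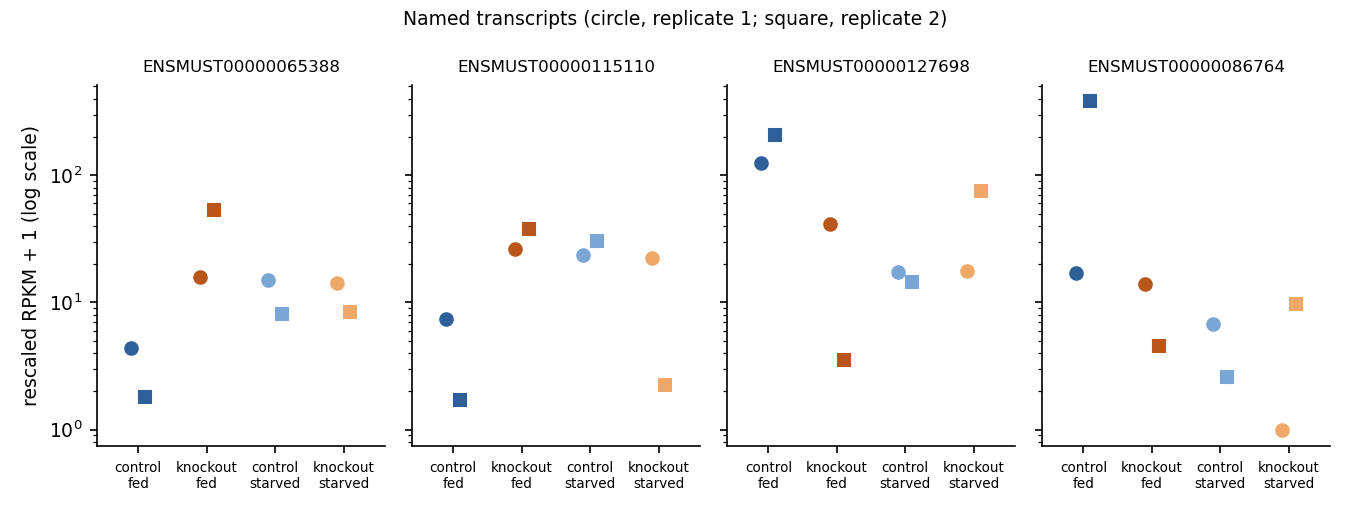
Rescaled RPKM + 1 (log axis) of the 4 named transcripts in fed and starved control and knockout libraries, with circles for replicate 1 and squares for replicate 2. Fed knockout lies above fed control in the first 2 panels and below it in the others, the replicates of a group often differ by more than the groups do, and 1 starved knockout library that did not list ENSMUST00000086764 is drawn at 1.

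Presence in the files differed more by replicate number than by group. Of 13306 transcripts listed in any of the 4 files, both control but neither knockout file listed 44, and both knockout but neither control file listed 68. Both replicate 2 but neither replicate 1 file listed 725, and the reverse held for 86. Reads could be recovered for 43 of the 44 and 63 of the 68. Of these, 0 had at least 20 reads in both libraries that listed them. A transcript of unknown coding length, singled out after its values were seen, measured 4.69 and 48.1 RPKM in the knockout replicates. It was unlisted in both control libraries, in the fed Thiamet-G libraries and in the starved control and knockout libraries. Its knockout replicates differed widely, and its limma adjusted p was 1.

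The starved cells, whose libraries share none with the fed comparison, were used to ask whether the fed differences recurred. Knockout and control were starved for 2 h in these. Limma called 0 of 10936 transcripts (0%) between starved knockout and starved control cells, with 147 (1.34%) at an unadjusted p under 0.05. For the interaction of starvation and knockout it called 0 (0%), with 216 (1.98%) at that level. Of the transcripts over 2-fold lower in both fed pairs, 335 were listed in the starved libraries, with median log2 ratios of -0.12 and -0.22. Both starved ratios were below 0 for 118 of them (35.2%), against 27.2% of all transcripts. Of those over 2-fold higher in both fed pairs, 362 were listed, with medians of -0.01 and 0.29, and both ratios were above 0 for 96 (26.5%), against 25.3% of all. The fed differences were thus mostly not seen again at comparable size in starved cells, the lower set being nearer to it than the higher one.

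The length pattern was not seen between starved groups. Coding regions of at most 600 nt had median log2 ratios of starved knockout to starved control of -0.02 and 0.18, and their share of reads was 21.1% and 27.1% in control and 21.7% and 30.9% in knockout replicates. Knockout was slightly higher in both starved pairs, by 0.587 and 3.78 points. The 100 transcripts ranked in fed Thiamet-G cells held 11.1% and 17.3% in starved control and 10.6% and 16.2% in starved knockout libraries. These values lay within the spread of replicates.

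The eIF3-associated 80S ribosomes offered 1 fed knockout library of 154618 reads against 2 fed control libraries of 148884 and 199785 reads, with no test. Coding regions of at most 600 nt had median log2 ratios of -0.16 and 0.08 against the 2 controls, over 586 transcripts listed in all 3. They held 19.2% of recovered reads in the knockout and 19.4% and 18.6% in the control libraries, so the knockout value lay between the controls. Recovery was 90.7% of all reads in the knockout and 87.1% and 90.7% in the control libraries. The unrecovered reads outnumber these gaps, so the order of the 3 shares is not settled. The transcripts over 2-fold lower in fed Ribo-seq had medians of -0.24 and 0.09 there (123 listed), and those over 2-fold higher 0.11 and -0.15 (163 listed). The sign depended on the control library used.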

How the data were processed

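Ribo-seq libraries were made from pooled ribosome fractions of a sucrose gradient, digested with RNase I and selected on a gel at 25 to 35 nt, per the labels' protocols. The authors deposited 1 file per library with Ensembl transcript identifiers and RPKM values. Cutadapt, STAR and the build GRCm38 appear in the submitters' processing notes. For the counter, annotation release and filters, nothing is given in the sources used here. Titles set the groups and replicate numbers, and 1 control description carries the other replicate number.

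Whole reads, library totals and coding lengths were recovered from ratios between RPKM values (12249 of 15354 transcripts had a solved length). Lengths were searched among multiples of 3, so that 99.9% of them were such multiples is no check of the recovery. At least 99.5% of the reads of each of the 4 libraries were recovered. The procedure was checked on simulated data, whose coding lengths were all multiples of 3. RPKM values were rescaled by median ratios, unlisted transcripts were set to 0, and transcripts averaging 1 RPKM or more entered a two-sided test in limma 3.58.1 under R 4.3.3 (lmFit, eBayes with a trend) on log2(RPKM + 1) with Benjamini-Hochberg adjustment. This scale understates fold changes of low transcripts. Ratios within a pair use transcripts listed in all 4 libraries. Shares of reads were compared by exact permutation tests. Alternatives were other pseudocounts, filters, scalings and sets of libraries, limma-voom on recovered reads, a block for replicate number, and leaving out each library.

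The rule for named transcripts took Ogt, Oga, Eif3a, Atf4 and members of gene lists, then the 12 largest non-overlapping fold changes per direction. Because 0 of 15354 identifiers matched a gene name, gene lists and markers were left out and 2 identifiers per direction are printed. The transcripts, classes and lists were chosen with earlier results of these data known.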

Additional observations from a re-analysis of the deposited data

Results flagged for a closer look

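In 3 results the differences between knockout and control had opposite signs in the fed and the starved pairs. For the first, the difference between fed and starved cells was not tested. The other 2 are transcripts picked for large fed fold changes, so values nearer 0 in starved cells follow in part from that choice. Their ratios in the first starved pair were near 0. The share of reads on coding regions of at most 600 nt differed between knockout and control by -18.0 and -6.13 points in the fed pairs and by 0.587 and 3.78 points in the starved pairs, so the starved difference minus the fed one came to 14.3 points. For ENSMUST00000115110 the log2 ratios of knockout to control were 1.82 and 4.48 in fed and -0.07 and -3.78 in starved cells. The starved minus the fed fold change was -5.08 (limma interaction, adjusted p = 1), and starved knockout replicate 2 held 1 read of it. For ENSMUST00000127698 the ratios were -1.58 and -5.87 in fed and 0.02 and 2.37 in starved cells. The difference was 4.92 (limma interaction, adjusted p = 1), and it rests on 2 reads in fed knockout replicate 2.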

How the results depend on the processing

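Limma called 0 transcripts in all 20 alternative fits, 18 of them planned and 2 added after the data were seen. Among alternatives that kept all 4 libraries, the smallest adjusted limma p was 0.063, without a filter on low values. With the replicate block it was 0.078 in the 4 fed libraries, and under limma-voom 0.227 in 8 libraries. The number at an unadjusted p under 0.05, 401 of 10936 in the main fit, was 461 of 10936 when the replicate block alone was added to the 12 libraries. In the 8 knockout and control libraries it was 393 without and 805 with the replicate block, each of 10811 tested. Limma-voom gave 541 of 9914 in 12 libraries without the block and 1073 of 9969 in 8 libraries with it. Among transcripts listed in every library of the fit, it was 972 of 9519 with the replicate block in the 4 fed libraries. It was 752 of 9014 in the 8 libraries, and both fits were added later. The counts with the block in 4 or 8 libraries, and that of limma-voom in 12, were over the share of 0.05 expected with no difference. This excess was not tested. The counts of 401, 461 and 393 were under that share. The starved Thiamet-G group was left out of the check of replicate numbers. Its replicate 1 held 19.7% of recovered values under 5 reads and its replicate 2 held 0%, the reverse of the other Ribo-seq groups. The block in 12 libraries still used its numbers as titled. Between the other groups, the log2 ratios of replicate 1 to replicate 2 correlated at 0.080 to 0.445 over 10 pairs of groups. All correlations were positive and 9 were over 0.1, a hint that libraries of the same number deviated alike. They were not always nearest to each other. Control replicate 1 had a median absolute log2 ratio of 0.65 to control replicate 2 and 0.73 to knockout replicate 1. As 1 correlation was under 0.1 and the labels name no shared culture, the block was kept as an alternative. Leaving out 1 library gave 233 to 566 such transcripts and 0 calls in each case, medians of -0.87 to -0.37 for coding regions of at most 600 nt and -0.03 to 0.35 for those over 3000 nt, and differences in share of -16.5 to -7.69 and 0.582 to 2.60 points. For the 100 most read transcripts of fed Thiamet-G cells it gave -8.97 to -7.66 points. Ranking 50 or 200 there gave -6.48 and -8.45 points, and ranking 100 in starved control cells reversed the difference to 0.846 points. Depth limits knockout replicate 2, with a median of 42 reads per recovered transcript. Summed levels of gene lists were not run, since no identifier matched a gene name.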
